A study of Mus musculus with 30 samples.

Results

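The genes that mesenchymal cells of the mouse forelimb bud use to stick together and to build the matrix of a precartilage condensation were followed over 24 h with and without a block of WNT secretion. The set holds 10 genes, chosen by name for what they encode, with earlier results of these data known. They are the adhesion molecules *Ncam1*, *Cdh2* and *Cdh11*, the hyaluronan genes *Has2* and *Cd44*, the proteoglycan *Vcan*, and the matrix glycoproteins *Fn1*, *Tnc*, *Thbs1* and *Postn*. All 10 were found among 50833 counted genes, of which 20569 are protein-coding, and all 10 passed the filter on low counts in every comparison. All embryos were wild-type (WT) Swiss Albino, with no engineered allele named. Pregnant mice were injected at E10.5 with Wnt-C59 (C59), an inhibitor of Porcupine, the enzyme that adds the lipid WNT ligands need for secretion, or with DMSO as control. Forelimb buds were dissected after 1, 6, 12, 18 or 24 h, which gave 10 groups of 3 libraries. By the study's methods each library was made from 1 pair of forelimb buds, with all tissues of the bud in it. The drug reached the mother and every tissue of the embryo, and the vehicles of the drug and the control were not the same. The libraries held between 18188636 and 38974885 counts, and in each of the 30 pairs of replicates the counts differed beyond sampling noise. C59 18 h replicate 3 stood apart, with a chi-square per degree of freedom of 47.6 and 39.9 against the other 2 libraries of its group and at most 18.9 in all other pairs, so the calls at 18 h are also given without it.

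Before cartilage forms, limb mesenchymal cells draw together into condensations. N-cadherin and NCAM hold the cells to each other, fibronectin and tenascin-C fill the space between them, and the swollen hyaluronan and versican matrix of the loose mesenchyme is remodelled. WNT ligands from the ectoderm keep the distal mesenchyme proliferating and undifferentiated, and *Sox9*, the transcription factor that starts condensation, is expressed where their influence is weaker.

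Across 24 h of normal development, 9 of the 10 genes rose and *Cd44* did not. After C59, 1 gene differed at 1 h, when 2.75% of all tested genes did, 5 at 6 h (19.6%), 8 after 12 h (47.5%), and later 1 (18 h, 7.08%) and 0 (24 h, 6.44%). The genes moved in different directions. *Ncam1*, *Thbs1* and *Vcan* rose, and *Has2*, the enzyme that makes hyaluronan, and *Cd44*, its receptor, fell. *Cdh11* passed at no time, except at 18 h when all 30 libraries entered the fit.

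**Figure D1:**
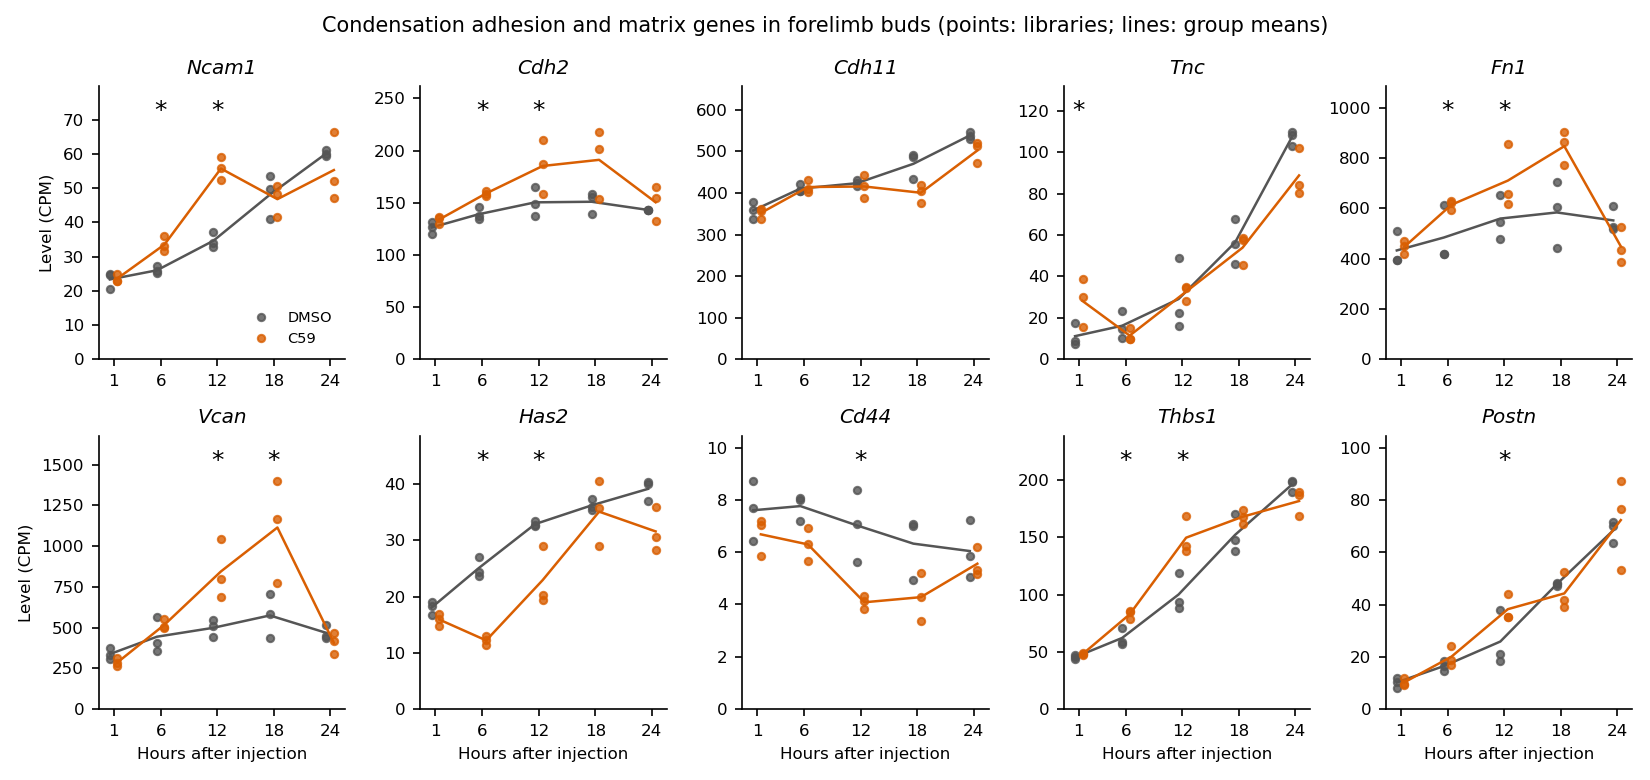
Level of each of the 10 genes in counts scaled to library size (CPM, y axis from 0) against hours after injection (x axis) in DMSO control (grey) and C59 (orange) forelimb buds; points are libraries, 3 per group, lines join group means and asterisks mark an adjusted p below 0.05. *Has2* in C59 buds dipped to between 11.3 and 13.0 CPM at 6 h, while *Vcan* in C59 buds stood at up to 1397 CPM at 18 h and overlapped the controls at 24 h.

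Promoter sequences of 4 of the 10 genes, *Tnc*, *Postn*, *Vcan* and *Cd44*, were taken from the RefSeq table used here (build GRCm38.p6, 250 bases before to 50 bases after a start site, read 5′ to 3′ on the gene's strand). These 4 were the members with a window among the promoters searched, and they were not picked by their expression. Both strands were searched for CTTTGA, the core that TCF/LEF factors of the WNT pathway bind, for CTTTGT, a core bound by SOX factors, and, after the windows had been read, for TATAA, the TATA box core. Matches are in capitals.
Tnc, chr4:64046887-64047186, minus strand: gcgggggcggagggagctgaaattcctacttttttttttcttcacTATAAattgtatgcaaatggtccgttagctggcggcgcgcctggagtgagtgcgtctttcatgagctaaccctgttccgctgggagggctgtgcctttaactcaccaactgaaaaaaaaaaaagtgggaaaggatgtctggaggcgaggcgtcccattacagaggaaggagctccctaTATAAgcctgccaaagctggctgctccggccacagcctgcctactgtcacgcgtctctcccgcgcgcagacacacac
Postn, chr3:54360857-54361156, plus strand: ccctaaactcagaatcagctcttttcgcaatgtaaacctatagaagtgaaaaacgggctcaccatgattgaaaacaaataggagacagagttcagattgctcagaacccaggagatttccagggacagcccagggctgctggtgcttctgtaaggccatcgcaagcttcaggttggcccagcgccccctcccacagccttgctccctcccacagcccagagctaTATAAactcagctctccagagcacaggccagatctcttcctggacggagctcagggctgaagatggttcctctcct
Vcan, chr13:89742463-89742762, minus strand: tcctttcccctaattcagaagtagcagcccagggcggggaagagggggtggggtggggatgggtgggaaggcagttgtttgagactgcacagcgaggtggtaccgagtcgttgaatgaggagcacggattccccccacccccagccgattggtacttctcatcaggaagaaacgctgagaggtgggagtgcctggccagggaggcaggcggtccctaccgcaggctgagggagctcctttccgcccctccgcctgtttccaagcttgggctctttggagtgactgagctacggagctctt
Cd44, chr2:102901616-102901915, minus strand: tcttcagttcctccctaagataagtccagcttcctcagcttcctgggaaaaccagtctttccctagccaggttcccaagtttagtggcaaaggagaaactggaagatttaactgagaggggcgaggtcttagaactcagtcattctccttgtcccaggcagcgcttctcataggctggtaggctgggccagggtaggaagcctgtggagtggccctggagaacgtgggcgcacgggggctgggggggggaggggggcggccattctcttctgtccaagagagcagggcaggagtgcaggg
The *Tnc* and *Postn* windows each held TATAA close upstream of the start site, at -27 and -26 bases, and *Tnc* a further match at -205. The *Vcan* and *Cd44* windows held none. As TATAA was searched for only after these windows had been read, the matches are a description. Any link with expression was not tested. TATAA occurred in 24.9% of the 32851 promoter windows searched. None of these 4 windows held CTTTGA, which was present in 16% of the windows searched, or CTTTGT, present in 18.7%. The table's second start sites of *Tnc* and *Postn* held neither of these either. The GC content of the 4 windows ran from 53% for *Postn* and 54% for *Tnc* to 58% for *Cd44* and 61% for *Vcan*.

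The levels of the genes relative to each other can be compared only per length, for which the FPKM values made by the authors, fragments scaled to transcript length and to library depth, were used. In DMSO limb buds at 1 h the order was *Cdh11* (mean 47.9 FPKM), *Fn1* (39.9), *Vcan* (25.7), *Cdh2* (20.2), *Thbs1* (6.21), *Has2* (3.85), *Ncam1* (3.67), *Postn* (2.50), *Cd44* (1.56) and *Tnc* (1.24). Libraries overlapped between the neighbours *Cdh11* and *Fn1*, *Has2* and *Ncam1*, *Postn* and *Cd44*, and *Cd44* and *Tnc*. At 24 h the order was *Cdh11* (75.9 FPKM), *Fn1* (53.7), *Vcan* (36.2), *Thbs1* (28.5), *Cdh2* (24.3), *Postn* (17.2), *Tnc* (12.4), *Ncam1* (10.46), *Has2* (8.69) and *Cd44* (1.26), and the libraries of no neighbouring pair overlapped.

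Which of these genes rise as the limb bud develops was asked by comparing DMSO buds at 24 h with DMSO buds at 1 h. Of the 10 genes, 9 rose at an adjusted p below 0.05 (edgeR quasi-likelihood test with Benjamini-Hochberg adjustment over all tested genes), against 59.3% of all tested genes that passed in either direction and 30.2% that passed as higher. The median log2 fold change of the 10 genes was 0.85, beside -0.0018 over all tested genes. In 5 of them the rise was beyond 1 on the log2 scale, which 12% of all tested genes passed.

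*Tnc*, which encodes the matrix glycoprotein tenascin-C, had the largest rise of the set. Its control libraries gave 8.75, 7.30 and 17.4 CPM at 1 h and 103, 110 and 108 CPM at 24 h. The groups were far apart, and the log2 fold change was 3.22 ± 0.18 (SE, 3 libraries each, edgeR adjusted p 2.25e-09). *Postn*, the gene of periostin, a matricellular protein of fibroblasts and perichondrium, went from 12.0, 10.49 and 8.25 CPM to 71.6, 70.0 and 63.6 CPM, a log2 fold change of 2.75 ± 0.10. *Thbs1*, the gene of thrombospondin-1, went from 43.6, 45.5 and 47.0 CPM to 199, 199 and 190 CPM (2.11 ± 0.05). These 3 secreted glycoproteins thus rose by 4.31-fold to 9.29-fold, and the libraries of each time lay close together apart from *Tnc* at 1 h. *Ncam1* rose 2.58-fold and *Has2* 2.16-fold. The abundant genes moved less, with *Cdh11* at 1.503-fold, *Vcan* at 1.38-fold, *Fn1* at 1.27-fold and *Cdh2* at 1.13-fold. The *Fn1* and *Cdh2* calls were lost with all 30 libraries in the fit (edgeR adjusted p = 0.0634 and 0.131). *Cd44* was at 8.71, 6.42 and 7.68 CPM at 1 h and 5.04, 7.22 and 5.87 CPM at 24 h. Those groups overlapped, and the log2 fold change of -0.32 ± 0.16 missed the threshold (edgeR adjusted p = 0.0887), although it passed without DMSO 1 h replicate 2 (-0.43) or DMSO 24 h replicate 2 (-0.48).

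*Axin2*, a transcriptional target of canonical WNT signalling, checks the treatment. It was at 108, 118 and 104 CPM in DMSO buds at 6 h and at 29.0, 29.2 and 26.5 CPM in C59 buds, and at 12 h at 112, 110 and 110 CPM against 38.9, 38.6 and 43.7 CPM. The groups did not overlap at either time, with log2 fold changes of -1.97 ± 0.06 at 6 h and -1.45 ± 0.06 at 12 h (edgeR adjusted p 7.55e-11 and 1.40e-07). *Axin2* was also lower at 1 h, without overlap (-0.19 ± 0.04, adjusted p 0.0282). At 18 h and 24 h its values of -0.16 and -0.08 did not pass. *Sox9* rose by 0.72 ± 0.05 at 6 h and by 1.19 ± 0.08 at 12 h on the same scale.

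*Ncam1* (chr9:49502136-49798925, minus strand, mm10) encodes the neural cell adhesion molecule, an immunoglobulin-type receptor that binds itself on neighbouring cells. At 6 h the DMSO libraries were at 25.8, 27.2 and 25.1 CPM and the C59 libraries at 33.1, 36.0 and 31.6 CPM. At 12 h they were at 32.8, 37.1 and 34.1 against 59.2, 52.3 and 55.9 CPM. All 3 C59 libraries lay above all 3 controls at both times. *Ncam1* rose by 0.36 ± 0.07 at 6 h (edgeR adjusted p 0.00315) and by 0.69 ± 0.07 at 12 h (adjusted p 2.13e-05), the latter a 1.61-fold difference, and both calls held without any one library. At 18 h the groups overlapped, with 41.1, 53.5 and 49.8 CPM in DMSO and 50.6, 48.4 and 41.6 CPM in C59. At 24 h the C59 libraries at 47.2, 52.2 and 66.6 CPM lay on both sides of the controls at 60.0, 59.6 and 61.1 CPM.

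*Cdh2*, the gene of N-cadherin, which joins condensing cells through calcium-dependent contacts, moved less. Its DMSO libraries gave 137, 146 and 134 CPM at 6 h and its C59 libraries 162, 159 and 157 CPM, without overlap. The values at 12 h were 149, 165 and 137 CPM against 211, 187 and 158 CPM, where the lowest C59 library lay inside the control range. *Cdh2* rose by 0.19 ± 0.05 at 6 h and 0.30 ± 0.09 at 12 h (edgeR adjusted p 0.0112 and 0.0230). The 6 h call was lost without DMSO 6 h replicate 3 or C59 6 h replicate 1 (0.16 and 0.18), and the 12 h call without DMSO 12 h replicate 1 or 3 or C59 12 h replicate 1 (0.21 to 0.29). At 18 h 2 of the C59 libraries, at 218 and 201 CPM, were above the controls of 139, 158 and 155 CPM and the third, at 154 CPM, was among them, and the difference of 0.36 ± 0.13 did not pass (adjusted p = 0.138). That library is C59 18 h replicate 3, and without it *Cdh2* passed (0.49, adjusted p 0.00405).

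*Cdh11*, the gene of cadherin-11, a cell-contact protein of loose mesenchyme (chr8:102632095-102785642, minus strand), was the member closest to the controls at 6 h and 12 h. Its mean was 411 CPM in DMSO and 414 CPM in C59 at 6 h, and 424 against 416 CPM at 12 h. The log2 differences of 0.01 ± 0.04 and -0.03 ± 0.05 were smaller than their errors. At 18 h the C59 libraries (419, 406 and 377 CPM) lay below the controls (434, 491 and 486 CPM), but the difference of -0.21 ± 0.09 did not pass (edgeR adjusted p = 0.193). It passed with all 30 libraries in the fit (-0.23, adjusted p 0.00356). At 24 h the C59 libraries (472, 521 and 514 CPM) were again below the controls (536, 548 and 531 CPM). The value of -0.09 ± 0.06 did not pass (adjusted p = 0.370).

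*Has2* (chr15:56665627-56694539, minus strand) encodes the main hyaluronan synthase of the embryo. It was at 23.6, 24.4 and 27.1 CPM in DMSO buds at 6 h and at 11.3, 12.3 and 13.0 CPM in C59 buds. Every C59 library was below every control, and the log2 fold change of -1.04 ± 0.09 (edgeR adjusted p 3.79e-06), a level 0.487 times that of the controls, was the only one of the set beyond 1 at 6 h, where 1.17% of all tested genes passed that rule. It ranked 160 by size among 13100 tested genes. At 12 h the controls were at 32.7, 33.3 and 32.5 CPM and the C59 libraries at 19.3, 20.3 and 29.1 CPM. *Has2* still fell by 0.52 on the log2 scale there (SE 0.13, adjusted p 0.00747), and replicate 3 was the nearest of the C59 libraries to the controls. At 18 h it was at 35.3, 37.3 and 35.9 CPM against 35.8, 40.5 and 29.0 CPM, with the C59 libraries on both sides of the controls. At 24 h the C59 libraries (28.2, 30.6 and 35.9 CPM) were again below the controls (40.0, 40.3 and 37.1 CPM), and the difference of -0.31 ± 0.09 just missed the threshold (adjusted p = 0.0595).

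*Cd44* (chr2:102811141-102901665, minus strand) encodes the hyaluronan receptor of the cell surface. At 12 h it was at 8.38, 5.62 and 7.07 CPM in DMSO and 3.81, 4.12 and 4.32 CPM in C59 buds. The groups did not overlap, and *Cd44* fell by 0.78 on the log2 scale (SE 0.18, edgeR adjusted p 0.00420), to 0.581 times the control level. At 6 h the libraries were at 8.01, 8.07 and 7.202 against 6.30, 6.92 and 5.68 CPM, also apart, but the difference of -0.31 ± 0.13 did not pass (adjusted p = 0.116). At 18 h the value was -0.55 ± 0.21 (adjusted p = 0.156), with 4.92, 6.98 and 7.08 CPM in DMSO and 5.19, 4.30 and 3.36 CPM in C59.

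*Vcan* (chr13:89655312-89742509, minus strand) encodes versican, the large chondroitin sulfate proteoglycan that binds hyaluronan in the pericellular matrix. At 12 h it was at 508, 548 and 440 CPM in DMSO buds and at 800, 1044 and 689 CPM in C59 buds. The lowest C59 library was above the highest control, and *Vcan* rose by 0.76 ± 0.13 (edgeR adjusted p 0.000706), a 1.69-fold difference that passed without any one library. At 18 h the controls spread from 437 to 703 CPM and the C59 libraries from 776 to 1397 CPM. The groups were still apart and *Vcan* was the only member to pass at 18 h, at 0.97 ± 0.22 (adjusted p 0.0343). This call was lost without DMSO 18 h replicate 1, 2 or 3 or without C59 18 h replicate 1 or 2 (0.78 to 1.14) and held without C59 18 h replicate 3 (1.17). At 24 h *Vcan* was at 517, 451 and 434 CPM in DMSO and 335, 416 and 469 CPM in C59. These ranges overlapped, with a difference of -0.20 ± 0.10 (adjusted p = 0.280). At 6 h *Vcan* did not pass (0.22 ± 0.12), except without DMSO 6 h replicate 2, the highest control at 566 CPM (0.43, adjusted p 7.82e-05). At 1 h *Vcan* was lower in C59 buds, with overlap, and the value of -0.24 ± 0.07 did not pass (edgeR adjusted p = 0.0683). This fall passed in DESeq2 (adjusted p 0.0150), with no filter on low counts (edgeR adjusted p 0.0120) and without DMSO 1 h replicate 2 (-0.30).

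*Fn1*, the gene of fibronectin (chr1:71585520-71653200, minus strand), had smaller differences than *Vcan* at 12 h and 18 h and a larger one at 6 h. It was at 419, 614 and 418 CPM in DMSO and 627, 592 and 622 CPM in C59 buds at 6 h, and at 546, 654 and 477 against 658, 854 and 618 CPM at 12 h. The groups overlapped at both times. *Fn1* rose by 0.34 ± 0.11 at 6 h and 0.35 ± 0.12 at 12 h (edgeR adjusted p 0.0419 and 0.0406). The 6 h call was lost without any one library other than DMSO 6 h replicate 2 (0.24 to 0.37) and the 12 h call without DMSO 12 h replicate 1 or 3 or C59 12 h replicate 2 (0.20 to 0.33), and DESeq2 passed neither (adjusted p = 0.239 and 0.150). At 18 h the C59 libraries, at 863, 772 and 905 CPM, were all above the controls at 441, 705 and 603 CPM, with a difference of 0.56 ± 0.16 that did not pass (adjusted p = 0.0702) but did in DESeq2 (adjusted p 0.0132), with upper-quartile factors (0.0473) and with all 30 libraries in the fit (0.0116).

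*Thbs1* (chr2:118111876-118127133, plus strand), whose product binds cells, fibronectin and latent TGF-beta, was at 56.8, 70.7 and 59.03 CPM in DMSO and 78.7, 85.3 and 84.5 CPM in C59 buds at 6 h. It was at 93.3, 119 and 88.4 against 169, 143 and 138 CPM at 12 h. No library overlapped with the other group at either time. *Thbs1* rose by 0.41 ± 0.07 at 6 h (edgeR adjusted p 0.00146) and 0.58 ± 0.10 at 12 h (adjusted p 0.00107), also without any one library. The values at 18 h and 24 h, 0.16 ± 0.10 and -0.10 ± 0.06, did not pass.

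*Postn* (chr3:54361109-54391037, plus strand) passed only at 12 h. The controls were at 21.2, 37.9 and 18.4 CPM and the C59 libraries at 44.1, 35.3 and 35.3 CPM. DMSO 12 h replicate 2 lay inside the C59 range and the other 2 controls were below it. The rise of 0.56 ± 0.21 was just under the threshold (edgeR adjusted p 0.0481), was lost without any one library other than DMSO 12 h replicate 2 (0.38 to 0.63) and was not called by DESeq2 (adjusted p = 0.172).

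*Tnc* (chr4:63959785-64047015, minus strand) passed at 1 h alone. It was at 8.75, 7.30 and 17.4 CPM in DMSO and 38.6, 30.3 and 15.5 CPM in C59 buds. Replicate 3 of each group lay in the range of the other group, so the groups overlapped around a log2 fold change of 1.31 ± 0.29 (edgeR adjusted p 0.0281). The call was lost without DMSO 1 h replicate 1 or 2 or C59 1 h replicate 1 or 2 (1.01 to 1.26), in DESeq2 (adjusted p = 0.173) and in limma on the FPKM values (adjusted p = 0.159 with a pseudocount of 1). At 6 h *Tnc* was at 10.51, 23.4 and 14.7 against 9.58, 15.0 and 9.73 CPM, a difference of -0.50 ± 0.24 that did not pass (adjusted p = 0.156) but did without DMSO 6 h replicate 1 (-0.75). At 12 h the controls were at 22.5, 48.8 and 16.0 CPM and the C59 libraries at 28.3, 35.0 and 34.7 CPM. The difference of 0.17 ± 0.30 did not pass, and without DMSO 12 h replicate 2, the highest control, it was 0.75 (adjusted p 0.00187).

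**Figure D2:**
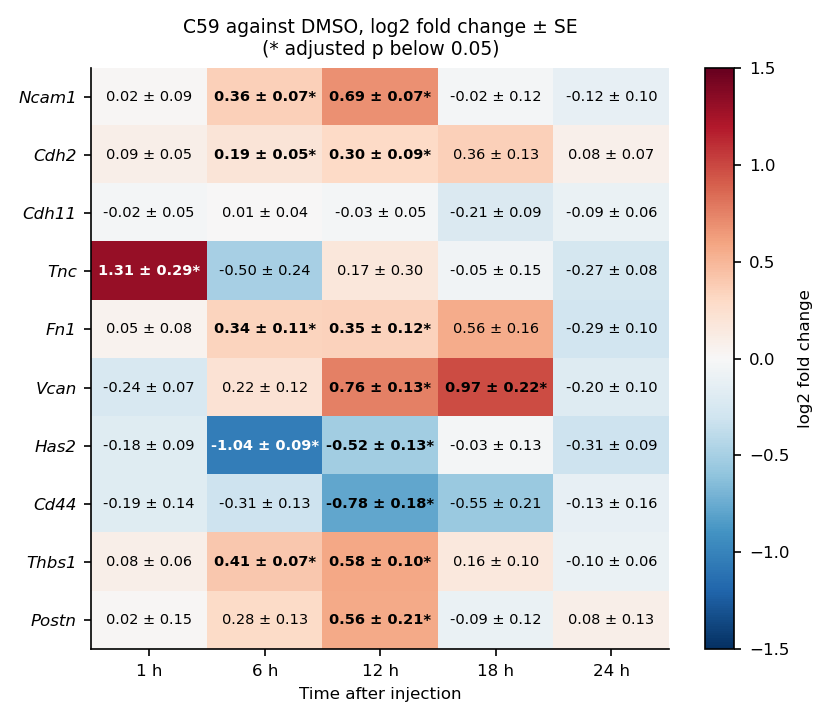
Log2 fold change of C59 against DMSO limb buds with its standard error (edgeR, 3 against 3 libraries) for each of the 10 genes (rows) at each time after injection (columns); red is higher and blue lower in C59, and bold values with an asterisk have an adjusted p below 0.05. *Has2* at 6 h (-1.04) and *Tnc* at 1 h (1.31) are the only called values beyond 1, and no gene passed at 24 h.

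Counted by time, 1 of the 10 genes passed at 1 h, where 2.75% of all tested genes did (1.14% as higher). At 6 h 5 passed, beside 19.6% of all genes, and 8 at 12 h, beside 47.5%. At 18 h 1 gene passed, as higher, against 7.08% of all tested genes in either direction and 3.46% as higher, and 2 passed, *Vcan* and *Cdh2*, without C59 18 h replicate 3. None passed at 24 h, where 6.44% of all tested genes did (3.56% as lower). Of the 5 at 6 h, 4 were higher (8.2% of all tested genes) and 1 lower (11.4%). Of the 8 at 12 h, 6 were higher (22%) and 2 lower (25.5%). At 24 h edgeR left 3 genes with an unadjusted p under 0.05, *Tnc*, *Fn1* and *Has2*, all lower, DESeq2 called 3 as lower and limma 0. The median log2 fold change of the 10 genes was 0.02 after 1 h and was 0.20 (6 h) and 0.32 (12 h) before it was -0.03 (18 h) and -0.12 (24 h), where that of all tested genes lay between 0.00124 and 0.0175. The 10 genes were too few to read a share from the counts alone, and under the study's rule, which adds a limit of 1 on the size of the log2 fold change, none of them passed at 12 h, beside 4.95% of all tested genes.

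Other cell types and embryo sex also differed between the groups. Summed FPKM of marker lists separated the C59 from the DMSO libraries without overlap in 3 of 9 lists at 6 h, 8 of 9 at 12 h, and 4 and 6 of 9, all with C59 above, at the later times of 18 h and 24 h. At 12 h muscle markers summed to between 111 and 139 FPKM in C59 and 39.3 and 79.5 FPKM in DMSO, ectoderm markers to between 149 and 202 against 97.5 and 111 FPKM, macrophage markers to between 22.8 and 24.3 against 12.0 and 14.4 FPKM, endothelial markers to between 109 and 126 against 87.5 and 96.5 FPKM, and Schwann cell and neural crest markers to between 19.4 and 28.8 against 12.0 and 17.2 FPKM. Limb mesenchyme markers went the other way, at 496 to 535 FPKM in C59 and 639 to 656 FPKM in DMSO, and chondrogenic markers were at 282 to 391 against 138 to 147 FPKM. Single markers did not all follow the sums. At 12 h 4 of 8 muscle markers were higher and 2 lower, and 2 of 8 limb mesenchyme markers were higher and 4 lower. The shares of all tested genes there were 22% higher and 25.5% lower. At 18 h chondrogenic markers were at 241 to 281 against 153 to 181 FPKM, ectoderm markers at 135 to 169 against 104 to 114 FPKM and macrophage markers at 27.6 to 32.8 against 19.4 to 20.9 FPKM. At 6 h muscle markers were at 40.0 to 56.9 against 29.9 to 31.0 FPKM. There 2 of 8 were higher and 1 lower, beside 8.2% and 11.4% of all tested genes. Immediate early genes, which respond to handling of tissue, summed to 121 to 145 FPKM in C59 and 109 to 114 in DMSO at 12 h, and to 130 to 145 against 95.6 to 114 FPKM at 18 h. Of 10 tested, 3 were higher and 1 lower at 12 h (22% and 25.5% of all tested genes). Several of the 10 genes are expressed by more than 1 of these tissues, and in whole limb buds more cells of a type and more RNA per cell cannot be told apart.

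Summed over 4 Y-linked genes, the libraries of DMSO 6 h were at 0.00 FPKM and those of C59 6 h at 20.3, 19.8 and 33.2 FPKM. At 1 h the control libraries gave 7.66, 9.03 and 0.05 FPKM and the C59 libraries 37.0, 38.2 and 21.2 FPKM. The controls at 7.66 and 9.03 FPKM lay between the other control and the C59 libraries, and the cause was not tested. At 6 h embryo sex thus went with treatment in every library, and for the calls at 6 h sex and treatment cannot be told apart. The same limit applies to the call at 1 h, where every C59 library was above every control. It also applies to the changes of the effect from 6 h to 12 h, which use the 6 h groups. The part of cell type makeup and of embryo sex in the differences between C59 and DMSO was not tested. The members that passed also include the longest transcripts of the set, *Vcan* and *Fn1*, with 14462 and 11685 annotated exon bases. The longest 10% of tested genes had a median log2 fold change between 0.08 and 0.09 from 6 h to 18 h and of -0.11 at 24 h, and the part of transcript length was not tested.

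Whether the effect of C59 differed between times was asked with interaction terms. From 6 h to 12 h the effect became more positive in 2 of the 10 genes, beside 18.1% of all tested genes that passed in either direction and 6.59% in this one. *Ncam1* gained 0.32 ± 0.10 (edgeR adjusted p 0.0318) as its rise grew, and *Has2* 0.52 ± 0.17 (adjusted p 0.0457) as its deficit shrank. The *Ncam1* call was lost when any 1 of 6 libraries was left out (values of 0.30 to 0.33; DMSO 6 h replicate 2, C59 6 h replicate 1 or 3, DMSO 12 h replicate 1 or 3, C59 12 h replicate 1), and the *Has2* call when any 1 of 9 of the 12 libraries was (0.32 to 0.58). *Vcan*, at 0.54 ± 0.21, did not pass (adjusted p = 0.0822) but did with no filter on low counts (adjusted p 0.0350) and without DMSO 6 h replicate 1 (0.69) or C59 12 h replicate 3 (0.68). From 12 h to 24 h the effect fell in 4 genes and rose in 1, beside 36.9% of all tested genes (17.7% that fell and 19.2% that rose). The terms were -0.96 ± 0.19 for *Vcan*, -0.81 ± 0.13 for *Ncam1*, -0.69 ± 0.13 for *Thbs1* and -0.65 ± 0.18 for *Fn1*, and 0.65 ± 0.24 for *Cd44* (adjusted p 0.000757, 0.000196, 0.000536, 0.0101 and 0.0445). *Fn1* turned from 0.35 ± 0.12 at 12 h to -0.29 ± 0.10 at 24 h, a value of similar size on the other side of the controls that did not pass, and the other 4 genes had smaller differences at 24 h than at 12 h. The *Cd44* term was lost when any 1 of 9 of the 12 libraries was left out (0.51 to 0.70) and in DESeq2 (adjusted p = 0.0531).

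Whether the C59 buds at 12 h had reached the levels of older controls was asked by comparing them with DMSO buds at 24 h. Of the 10 genes, 9 differed, beside 38.9% of all tested genes, with 3 higher in C59 at 12 h (18.8%) and 6 lower (20.1%). *Ncam1* was the exception, at 59.2, 52.3 and 55.9 CPM in C59 12 h and 60.0, 59.6 and 61.1 CPM in DMSO 24 h. Its difference was -0.07 ± 0.06 (edgeR adjusted p = 0.324), although the lowest control of 24 h was still above the highest C59 library. The genes with the steepest normal rise were below the older controls. That rise was measured with the same DMSO 24 h libraries, so the comparisons are not independent. *Tnc* was lower by 1.67 on the log2 scale (-1.67 ± 0.07), *Postn* at -0.80 ± 0.08 and *Thbs1* at -0.35 ± 0.07. *Has2* (-0.73 ± 0.12), *Cdh11* (-0.33 ± 0.05) and *Cd44* (-0.53 ± 0.17) were lower too. The *Cd44* call was lost without C59 12 h replicate 1 or 2 or DMSO 24 h replicate 2 or 3 (-0.38 to -0.55). *Vcan* (0.89 ± 0.12), *Cdh2* (0.41 ± 0.08) and *Fn1* (0.40 ± 0.10) were higher in C59 buds at 12 h than in controls of either age. The *Fn1* call against 24 h was lost without DMSO 24 h replicate 2 or 3 (0.36 and 0.37). It was also lost in DESeq2 (adjusted p = 0.0538) and in edgeR with all 30 libraries in the fit (adjusted p = 0.0782).

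**Figure D3:**
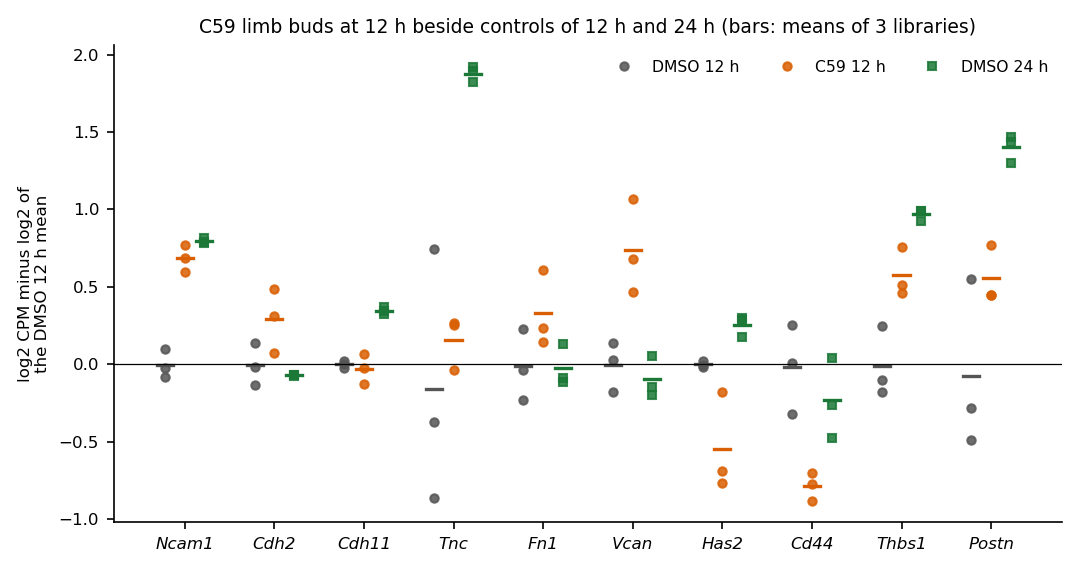
Level of each of the 10 genes in DMSO 12 h (grey circles), C59 12 h (orange circles) and DMSO 24 h (green squares) libraries, as log2 CPM minus the log2 of the DMSO 12 h mean; short bars are means of 3 libraries. *Ncam1* in C59 12 h lies near the 24 h controls, *Tnc* and *Postn* lie well below them, and *Vcan* lies above controls of both ages.

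The levels of the members over the 10 group means fell into a few shapes. *Ncam1*, *Thbs1* and *Postn* followed each other with a Pearson correlation of log2 CPM between 0.966 and 0.985, and *Cdh2*, *Fn1* and *Vcan* with one between 0.925 and 0.958. *Cd44* ran against the latter 3, at -0.899, -0.781 and -0.804. These are descriptions over 10 groups that share developmental time and treatment. Among 12541 genes searched, the genes most like each member were *Nacad* and *AW551984* for *Ncam1*, *Kif13b* and *Plcd1* for *Cdh2*, *Reep3* and *Osbpl3* for *Cdh11*, *Syt3* and *Dok2* for *Tnc*, and *Lrp1* and *Akap9* for *Fn1*. For *Vcan* they were *Il1rn* and *Phldb1*, for *Has2* *Dsc3* and *Lgr5*, for *Cd44* *Dkk1* and *Ipo7*, for *Thbs1* *Bmerb1* and *Atp2a1*, and for *Postn* *Smarca2* and *Tnnt1*. Their correlations ran from 0.952 (*Has2* with *Lgr5*) to 0.998 (*Postn* with *Smarca2*).

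Further genes of the same processes were taken from 3 lists. Of 24 adhesion receptors and catenins, 6 were higher and 5 lower at 6 h, and 12 were higher and 2 lower at 12 h, where their median log2 fold change was 0.22. The shares of all tested genes were 8.2% (higher) and 11.4% (lower) at 6 h, then 22% and 25.5% at 12 h. At 6 h *Itga4*, an integrin subunit that binds fibronectin, rose by 0.60 ± 0.11, *Itgb8*, which takes part in activation of TGF-beta, by 0.42 ± 0.12 and *Jup*, the gene of plakoglobin, by 0.37 ± 0.05. The syndecans *Sdc1* and *Sdc2*, heparan sulfate proteoglycans of the cell surface, fell by 0.52 and 0.42, and *Cdh13*, a cadherin without a cytoplasmic part, by 0.51. At 12 h *Ncam2*, the paralog of *Ncam1*, rose by 1.28 ± 0.44, *Itgb8* by 0.84 ± 0.14 and *Sdc4* by 0.70 ± 0.10, and *Sdc2* and *Sdc1* fell by 0.67 and 0.62.

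The hyaluronan and versican turnover genes were more even, with 4 higher and 3 lower of 21 tested at 6 h and 6 higher and 3 lower of 20 tested at 12 h (median 0.05). The 9 of 20 that passed at 12 h were close to the 47.5% of all tested genes. Enzymes that cleave versican or hyaluronan were among those that rose. Others of this kind fell, *Hyal2* at 6 h and *Adamts20* at 12 h. *Adamts15* rose by 0.58 ± 0.10 at 6 h and 0.99 ± 0.14 at 12 h, *Adamts5* by 0.36 ± 0.11 and 0.82 ± 0.15, and the hyaluronidase *Hyal1* by 0.59 ± 0.18 and 0.66 ± 0.14. *Tnfaip6*, whose product binds hyaluronan, fell by 0.51 at 6 h and 0.80 at 12 h. *Hapln1*, the gene of the link protein that locks proteoglycans onto hyaluronan, fell by 0.38 at 6 h, and so did *Hyal2* (0.19). At 12 h *Adamts20* fell by 0.75 and *Hmmr*, a hyaluronan-binding protein that also serves the mitotic spindle, by 0.23.

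Of the matricellular and fibril-associated genes, 4 of 20 tested were higher and 3 lower at 6 h, and 11 of 20 higher and 2 lower at 12 h (median 0.31), beside the same shares of all tested genes (8.2% and 11.4%, then 22% and 25.5%). At 6 h *Thbs2* rose by 0.49 ± 0.12, the collagen crosslinking enzyme gene *Lox* by 0.46 ± 0.13 and the fibrillin gene *Fbn1* by 0.45 ± 0.11, while *Sparcl1*, *Lum* and *Fbln1* fell by 0.55, 0.48 and 0.31. At 12 h *Spp1*, the gene of osteopontin, had the largest value of the 3 lists, 1.97 ± 0.26, and *Tgfbi* rose by 0.96 ± 0.13. *Sparcl1* was lower at 6 h and higher at 12 h (1.21 ± 0.09). *Ccn3* fell by 1.15 and *Fbln1* by 0.57. *Spp1* is also expressed by macrophages, whose markers were higher at 12 h as given above.

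**Figure D4:**
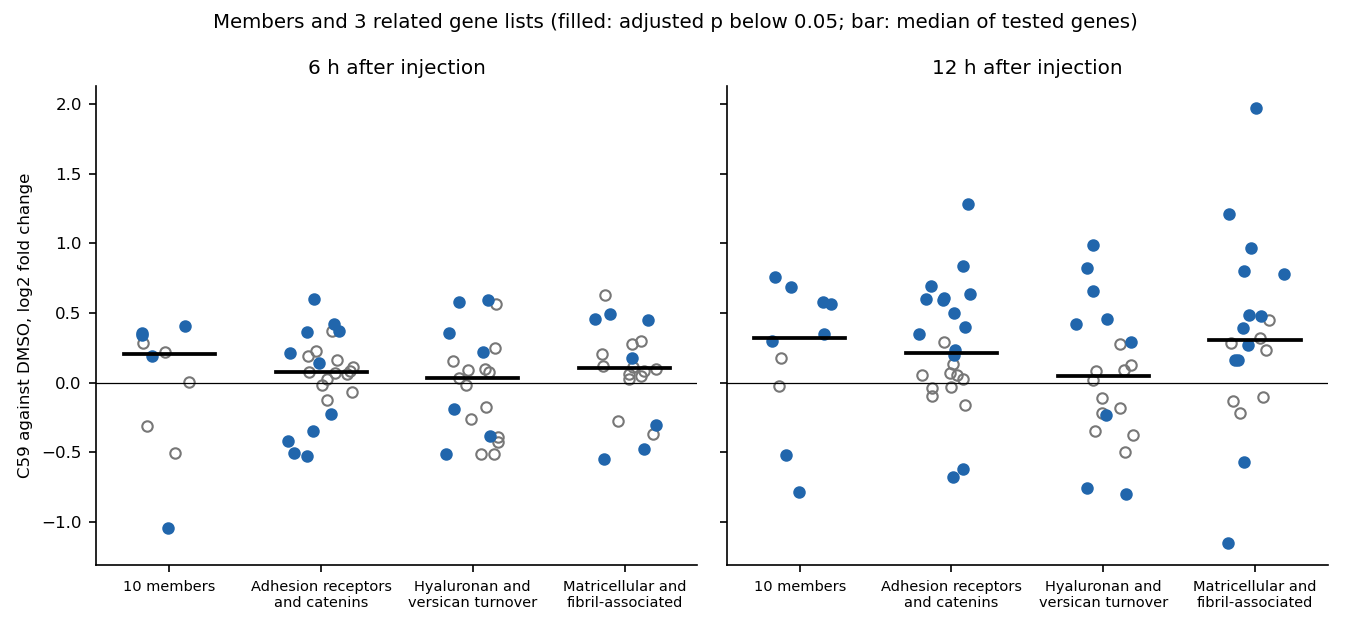
Log2 fold change of C59 against DMSO at 6 h (left) and 12 h (right) for the 10 genes and for the tested genes of 3 related lists; each point is a gene, filled where the adjusted p is below 0.05, and the bar is the median. The medians of all 4 lists were above 0 at both times, from 0.03 to 0.20 at 6 h and from 0.05 to 0.32 at 12 h.

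Exons of 5 of the 10 genes overlap those of a gene on the opposite strand, and without strand the reads of such a pair cannot be told apart. The FPKM were computed as unstranded, and the strand setting of the counts is not given in the sources used here. These are *Gm11149* for *Ncam1* (417 shared exon bases), *8030451A03Rik* for *Tnc* (176), *Apol7d* for *Fn1* (292), *Has2os* for *Has2* (182) and *Gm29233* for *Thbs1* (208). Each of the 5 had between 0 and 34 counts in any library.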

How the data were processed

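RNA of 30 forelimb bud libraries was polyA-selected and sequenced as paired reads. Per the submitters' processing notes, reads were trimmed with cutadapt (1.16), mapped to mm10 with STAR (2.7.0e) and quantified with Cufflinks (2.2.1). The deposited count table holds whole-number counts per gene, and the authors' FPKM table holds Cufflinks values normalised to transcript length and depth. The FPKM were computed as unstranded, and no strand setting is given for the counts. All 10 members joined by Ensembl identifier, and their coordinates were identical to those of GENCODE M21 (GRCm38).

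Counts of autosomal protein-coding genes were filtered (filterByExpr, minimum count 10, minimum total 15), scaled by TMM and tested with edgeR (4.0.16, quasi-likelihood F test), with 3 against 3 libraries or, for interaction terms, 12 libraries. The p-values were adjusted over all tested genes, and a gene passed below 0.05. SE is the log2 fold change divided by the square root of F. CPM are counts scaled to TMM-corrected library size. DESeq2 (1.42.0), limma (3.58.1) on log2(FPKM + 1) and log2(FPKM + 0.1), other scalings and filters, a fit of all 30 libraries, a replicate block and leaving out each library were the alternatives. The scripts were tested on simulated counts. The members and lists were chosen with earlier results of these data known. Named besides the members were *Axin2*, *Sox9*, up to 3 rises and 3 falls per list at 6 h and 12 h among passing genes with a mean of at least 1 CPM, the 2 genes most like each member over 10 group means, and overlapping genes. Replicates came from different embryos. Replicate numbers were checked and did not pair the samples. With 3 libraries per group an exact permutation test could not pass, so only fits across all genes were used.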

Additional observations from a re-analysis of the deposited data

Results flagged for a closer look

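The difference between C59 and DMSO limb buds changed between times in the following genes, by an interaction term in edgeR over 12 libraries. From 6 h to 12 h the log2 fold change of *Ncam1* became larger by 0.32 and that of *Has2* less negative by 0.52 (adjusted p 0.0318 and 0.0457). From 12 h to 24 h the log2 fold change moved by -0.81 in *Ncam1*, by -0.65 in *Fn1*, by -0.96 in *Vcan* and by -0.69 in *Thbs1*, and by 0.65 in *Cd44*. The *Vcan*, *Thbs1*, *Ncam1* and *Fn1* terms from 12 h to 24 h passed without any one of the 12 libraries. The *Cd44* term was lost when any 1 of 9 of them was left out. The interactions share the libraries of 12 h and are not independent of each other.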

How the results depend on the processing

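Counts of members that passed kept within 1.5 times the reported count in 117 settings and not in 48. Single values were counted per gene and setting. They kept their direction and side of the threshold in 1396 cases, became weaker in 87, stronger in 39 and reversed in 38. At 1 h the count of 1 became 2 with no filter on low counts and 0 with all 30 libraries in the fit or with limma at either pseudocount. At 6 h the count of 5 became 3 with all 30 libraries and 1 under the fold rule. The fold rule left 0 at 12 h, 0 at 18 h, 0 for both changes of the effect, 5 for DMSO 24 h against 1 h and 1 for C59 12 h against DMSO 24 h. At 18 h the count of 1 became 2 with DESeq2 or upper-quartile factors and 5 with all 30 libraries. At 24 h the count of 0 became 3 with DESeq2 or no filter. From 6 h to 12 h the count of 2 became 1 with all genes of the table, with all 30 libraries or with limma at a pseudocount of 1, and 0 at 0.1. The cause was not tested.

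Replicate numbers did not pair the samples (same-number correlations of -0.213 to 0.136 over 15 pairs, 9 of 30 libraries correlating best with their own number), and the fit with the replicate block gave 0 at 18 h and 1 at 24 h. It turned *Fn1* from 6 h to 12 h to -0.029 and kept the other counts within 1.5 times. Under the block *Tnc* passed at 6 h (-0.47) and 24 h (-0.27) and *Vcan* from 6 h to 12 h (0.50), and *Vcan* at 18 h (0.96) and *Cd44* from 12 h to 24 h (0.65) were lost.

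Leaving out 1 library gave counts of 0 to 2 at 1 h, 3 to 6 at 6 h, 5 to 9 at 12 h, 0 to 2 at 18 h, 0 to 3 at 24 h and 0 to 4 from 6 h to 12 h. The 5 at 12 h came without DMSO 12 h replicate 1 or 3, the 3 at 6 h without DMSO 6 h replicate 3 or C59 6 h replicate 1, and the 3 at 24 h without C59 24 h replicate 3, while without C59 24 h replicate 1 *Postn* alone passed (0.26). Values of either sign were given by *Ncam1* (-0.070 to 0.063), *Cdh11* (-0.067 to 0.014), *Fn1* (-0.020 to 0.18) and *Postn* (-0.13 to 0.14) at 1 h, *Cdh11* at 6 h (-0.016 to 0.036) and 12 h (-0.064 to 0.033), *Tnc* at 12 h (-0.11 to 0.75) and 18 h (-0.18 to 0.10), *Ncam1* (-0.12 to 0.059) and *Has2* (-0.14 to 0.087) at 18 h, *Cd44* (-0.23 to 0.025) and *Postn* (-0.060 to 0.26) at 24 h, and *Cdh11* (-0.071 to 0.026) and *Fn1* (-0.19 to 0.14) from 6 h to 12 h.

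Upper-quartile factors turned *Cdh11* to 0.056 at 12 h and 0.027 from 6 h to 12 h, and *Ncam1* and *Has2* to 0.017 and 0.011 at 18 h. Limma with pseudocounts of 1 and 0.1 turned *Postn* at 1 h to -0.0063 and -0.00036, *Cdh11* to 0.0445 and 0.0452 at 12 h and to 0.0160 and 0.0162 from 6 h to 12 h, and *Ncam1* at 18 h to 0.065 and 0.074. None of these values passed. Over all tested genes, upper-quartile factors moved the share of passing genes that were higher from 41.9% to 52% at 6 h, 46.4% to 61.4% at 12 h, 36.4% to 55.5% for the change from 6 h to 12 h and 52% to 41.6% for that from 12 h to 24 h. At a depth of 3.36 to 8.71 CPM, *Cd44* had standard errors of 0.13 to 0.24 in the comparisons of C59 with DMSO and their changes.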
